A study of Mus musculus with 6 samples.

Results

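The genes described here are 10 antioxidant genes that the transcription factor NRF2 is known to switch on. They were taken from the count table by their mouse symbols, Hmox1, Nqo1, Txnrd1, Gclm, Gclc, Srxn1, Slc7a11, Txn1, Prdx1 and Sqstm1, and all 10 of them were found among its 55401 genes. RNA was sequenced from 6 cultures of mouse T cells. In 3 of them the T cells were grown in medium conditioned by macrophages that had received neurofilament light chain (NFL), an axonal structural protein, and in 3 in medium conditioned by macrophages left untreated (control). The deposited design describes spleen T cells selected with beads against CD8a, and macrophages grown from CD11b-selected spleen cells with 50 ng/mL M-CSF for 7 days. It gives 5 µg/mL NFL for 24 h, from freeze-thawed sciatic nerve, whereas the study's co-culture methods give a lower concentration. The study's animal methods name a purchased NFL protein, and freeze-thawed sciatic nerve is described there as a separate lysate. In both groups the T cells grew in RPMI-1640 with 2% serum, of which 50% was replaced by the supernatant. Strain, sex and age are not given in the labels of these samples, nor whether the cultures came from separate animals, so the p-values below measure the spread between these 6 cultures, which may be technical.

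NRF2, encoded by Nfe2l2, is held in the cytoplasm and marked for destruction by KEAP1, a sensor whose cysteines react with oxidants and electrophiles. When KEAP1 is disabled, NRF2 enters the nucleus, pairs with a small MAF protein and binds antioxidant response elements, which BACH1 can occupy as a repressor. Its targets make glutathione, keep thioredoxin and peroxiredoxins reduced, break down haem and detoxify quinones. Activated T cells need cystine import and glutathione for growth.

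Of the 10 genes, 9 passed the filter on low counts, and the group difference was small in each. Sqstm1, which encodes the autophagy receptor p62, a binding partner of KEAP1, rose by 13.6% with NFL supernatant. Txn1, which encodes thioredoxin, rose by 8.56%. Gclc, the catalytic subunit of the first enzyme of glutathione synthesis, fell by 7.43%. The other 6 tested genes were not past the threshold, an edgeR adjusted p-value under 0.05, and the median log2 fold change of the 9 genes was 0.04. Over all 14082 genes tested the median was 0.00.

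So 3 of 9 genes passed the threshold, 2 higher and 1 lower. Of all genes tested 7.00% passed it, 3.47% higher and 3.53% lower. Abundant genes passed more often. Among the 4415 genes with at least the average level of the least abundant tested member, Slc7a11, the share was 14.4%, with 7.95% higher and 6.46% lower. Being bulk RNA, these values cannot tell a smaller number of cells with a transcript from less of it per cell.

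The libraries held 15843045 to 24639756 counts in the control group and 16190568 to 17796228 in the NFL group, and pairs of the same group differed by more than counting noise. Over all genes, 489 were higher and 497 lower with NFL supernatant, and with library size in place of TMM scaling 372 were higher and 600 lower. Leaving out NFL replicate 3 or NFL replicate 2 reduced the total from 986 to 508 or 616 genes. Of 13 T-cell markers 12 were tested. In CPM, counts scaled to library size and by TMM (trimmed mean of M-values), Thy1 lay at 1572 to 1707, whereas Cd5 was at 0 counts, Cd4 at 23.3 to 27.6 CPM and Cd8a, the antigen of the selection beads, at 3.20 to 4.45 CPM. The T-cell receptor β segment Trbv1 took at least 99.87% of the counts on such segments. These low Cd8a, absent Cd5 and single dominant segment go against the description of CD8-selected spleen T cells, which carry many such segments, so the values below are those of the libraries as labelled. Trac at 0.992 to 2.50, Cd8b1 at 0.868 to 1.57 and Lck at 3.66 to 5.89 CPM were also low, whereas Trbc1 lay at 340.5 to 376.8 CPM. Summed T-cell marker levels were 3770 to 3950 CPM with control and 3980 to 4060 CPM with NFL supernatant. Thy1 and Il2ra made up most of each sum. Il2ra, the activation marker of the list, rose from a mean of 1645 to 1858 CPM (edgeR adjusted p = 1.1e-06) and Cd3e fell (edgeR adjusted p = 5.7e-04). Of the 12 tested markers 9 had a log2 fold change below 0, with a median of -0.15, so most markers lay on the other side from the sum. Of 12 macrophage markers, 10 had 3 counts or fewer in each library, Lyz2, C1qa, C1qb, Csf1r and Cd14 among them, and the summed level was 24.5 to 27.4 CPM with control and 19.2 to 23.5 CPM with NFL supernatant, nearly all of it Cd68, which fell (adjusted p = 0.049). Sums of B-cell markers (12.1 to 13.2 against 11.6 to 14.1 CPM), erythroid markers (1.34 to 1.47 against 0.987 to 1.98 CPM) and nerve markers (202 to 215 against 196 to 215 CPM, nearly all Nefh) overlapped between the groups. Mitochondrial transcripts took 1.65% to 1.77% of the control counts and 1.54% to 1.60% of the NFL counts. The part of these differences in the results was not tested.

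Promoter windows of 300 bases, 250 before and 50 after a start site, were taken from RefSeq (GRCm38.p6) and were matched for 8 of the 10 genes, all but Hmox1 and Gclc. They were searched on both strands for TGACNNNGC, the core of the antioxidant response element, and for TGAGTCA, the related AP-1 element. The first was found for Txnrd1 (in 1 of its windows), Gclm, Srxn1 and Prdx1, and in 12.4% of all 32851 windows in the table. The second was found for Srxn1 and Prdx1, at 2 places each, and in 5.2% of all windows. Of the pair in Prdx1, 1 lies inside the TGACNNNGC match. The windows of Prdx1, Srxn1 and Gclm are shown because they hold the matches, and that of Sqstm1 because this gene changed most and its window holds neither. Capitals mark the matches, read 5′ to 3′ on the strand of the gene, at chr4:116685349-116685648 (+), chr2:152105274-152105573 (+), chr3:122245307-122245606 (+) and chr11:50210771-50211070 (-).
Prdx1: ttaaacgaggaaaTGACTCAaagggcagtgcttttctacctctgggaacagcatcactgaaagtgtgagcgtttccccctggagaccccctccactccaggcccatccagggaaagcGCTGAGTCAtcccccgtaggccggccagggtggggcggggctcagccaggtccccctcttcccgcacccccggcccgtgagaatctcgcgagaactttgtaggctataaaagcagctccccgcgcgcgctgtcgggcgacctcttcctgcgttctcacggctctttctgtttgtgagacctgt
Srxn1: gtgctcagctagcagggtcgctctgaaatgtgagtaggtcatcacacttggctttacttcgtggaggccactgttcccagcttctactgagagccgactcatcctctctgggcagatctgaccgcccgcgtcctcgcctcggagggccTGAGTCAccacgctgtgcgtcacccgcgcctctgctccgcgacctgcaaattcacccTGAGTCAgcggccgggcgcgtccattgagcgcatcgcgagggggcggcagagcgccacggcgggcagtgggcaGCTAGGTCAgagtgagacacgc
Gclm: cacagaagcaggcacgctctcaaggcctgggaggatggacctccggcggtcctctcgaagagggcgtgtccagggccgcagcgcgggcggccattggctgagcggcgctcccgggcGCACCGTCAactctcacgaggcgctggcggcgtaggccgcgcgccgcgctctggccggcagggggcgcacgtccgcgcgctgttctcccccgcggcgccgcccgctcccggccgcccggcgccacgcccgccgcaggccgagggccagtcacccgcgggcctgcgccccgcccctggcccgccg
Sqstm1: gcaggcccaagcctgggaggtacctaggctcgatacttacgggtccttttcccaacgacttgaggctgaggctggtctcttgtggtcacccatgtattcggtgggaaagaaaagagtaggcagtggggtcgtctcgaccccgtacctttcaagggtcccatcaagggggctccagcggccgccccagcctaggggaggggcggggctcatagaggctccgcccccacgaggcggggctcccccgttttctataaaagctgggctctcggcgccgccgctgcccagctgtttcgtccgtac
None of the 3 genes shown with a match was past the threshold, and a match says only that the letters are there. A window without a match says nothing of elements outside its 300 bases, and those of Nqo1, Slc7a11 and Txn1 also held neither. Whether NRF2 acted on any of these genes was not tested.

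Levels per length, in CPM per kilobase of merged exons with control supernatant, spanned a wide range. Txn1 was highest at 411 ± 24.1 (SD, n = 3 here and for the next values). Prdx1 at 238 ± 2.82 and Sqstm1 at 226 ± 15.7 followed and did not differ beyond their spread. Below them lay Txnrd1 at 63.9 ± 0.315, Gclc at 51.9 ± 2.44, Hmox1 at 45.3 ± 1.51, Gclm at 34.6 ± 0.771 and Srxn1 at 25.5 ± 1.55. Slc7a11 was at 3.93 ± 0.019, over merged exons of 13922 bases. Merged exons were 7086 bases for Txnrd1 (8 transcripts), 6291 for Gclm (7 transcripts) and 1051 for Txn1 (1 transcript). Which transcripts of these genes were expressed was not tested, and the order could depend on it. Nqo1 was at 0.172 ± 0.058.

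Nqo1, the quinone reductase often used as a read-out of NRF2, was scarcely expressed. It had 8, 5 and 4 counts in the control libraries and 2, 2 and 5 in the NFL libraries, around the floor of 3 counts. It failed the count filter and no difference between the groups was detectable at this depth.

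**Figure D1:**
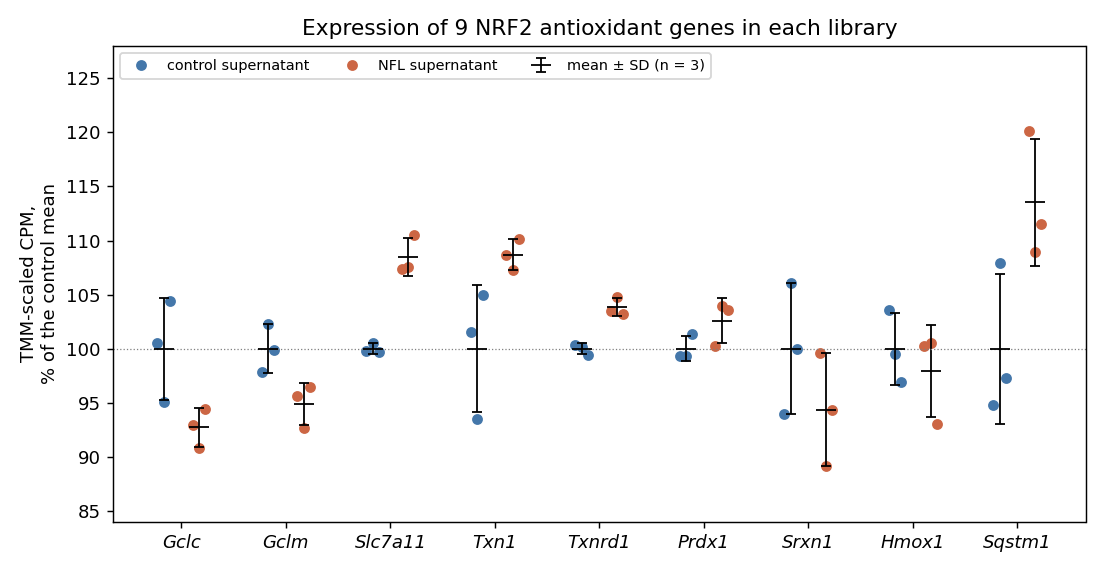
TMM-scaled CPM of the 9 tested genes in each of the 6 libraries, as a percentage of the gene's control mean. Points are libraries and bars the mean ± SD (n = 3); the vertical axis does not start at 0. With control supernatant Slc7a11 and Txnrd1 had the smallest spread, and Sqstm1 had the largest difference and, with control supernatant, the widest spread.

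Sqstm1 (ENSMUSG00000015837.15) lies on chromosome 11 from 50199366 to 50210827 in GRCm38. Its level was 718, 817 and 737 CPM in the control libraries and 910.0, 825 and 845 CPM in the NFL libraries. NFL replicate 1 was highest, and control replicate 2 lay just below NFL replicate 2. The group means were 757 ± 52.6 and 860 ± 44.5 CPM (SD, n = 3 each). The log2 fold change was 0.18 (95% interval 0.12 to 0.25, SE 0.033), with a Benjamini-Hochberg adjusted p = 1.0e-04 by the edgeR quasi-likelihood F-test. No control value reached an NFL value (p = 0.1 by exact two-sided permutation of the 6 libraries, which is the minimum for this design), but with library size alone the groups overlapped, at 823 CPM in control replicate 2 against 822 CPM in NFL replicate 2.

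The coefficient of variation of Sqstm1 was 6.95% in the control libraries, the highest among the 9 genes, and 5.18% in the NFL libraries, where Srxn1 was more variable at 5.53%. The edgeR test takes much of its error from all genes, whose common biological coefficient of variation was 3.48%. From the 6 values of Sqstm1 alone the standard error was 0.071, and the DESeq2 Wald test gave an adjusted p = 0.106 for a log2 fold change of 0.18. With edgeR the gene kept its call whichever library was omitted, at an adjusted p of at most 0.0128, and the log2 fold change ran from 0.14 to 0.24. The antisense gene Mrnip shares 580 bases with the exons of Sqstm1, but its own counts were 0.461% to 0.802% of those of both genes together, and its own log2 fold change was -0.28 (edgeR adjusted p = 0.412). Whether the counting used strand is not given in the sources used here, so reads from the shared bases cannot be assigned to either gene.

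Genes of the thioredoxin system came next. Txn1 (ENSMUSG00000028367.5, chromosome 4 from 57943373 to 57956411) had 438, 404 and 453 CPM with control and 469, 463 and 476 CPM with NFL supernatant. Every NFL library was above every control library, and control replicate 2 was the lowest. The means were 432 ± 25.4 and 469 ± 6.14 CPM (SD, n = 3 each), and the log2 fold change was 0.12 (95% interval 0.06 to 0.18, SE 0.032, edgeR adjusted p = 0.012). Without control replicate 2 it was 0.08 (adjusted p = 0.119), and without NFL replicate 3 it was 0.11 (adjusted p = 0.110), neither past the threshold. From the gene's own 6 values the standard error was 0.051. The pseudogene Txn-ps1, 95.8% identical over 309 bases, had at most 5 counts.

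Txnrd1, the cytosolic reductase that returns electrons from NADPH to thioredoxin, had 454, 453 and 450.0 CPM with control and 468, 474 and 467 CPM with NFL supernatant. Each group lay within a few CPM and they did not overlap, yet the difference of 3.85% was not past the threshold (95% interval -0.166% to 8.02%, edgeR adjusted p = 0.288). Its own standard error was 0.008, smaller than the 0.028 of the fit. Prdx1, a peroxiredoxin that reduces hydrogen peroxide with electrons from thioredoxin, had 719, 719 and 734 CPM against 726, 752 and 750.0 CPM. These groups overlapped, and the difference was between -1.23% and 6.55% with 95% confidence (edgeR adjusted p = 0.516). The pseudogenes Gm7204 and Gm21399, 97.5% and 98.3% identical to Prdx1 over 597 bases, took at most 0.192% of the counts of the 3 together. Srxn1, which repairs overoxidised peroxiredoxins, was among the most variable, with 67.5, 76.3 and 71.8 CPM against 71.6, 64.1 and 67.8 CPM. Its groups overlapped and the interval of the difference was -12.0% to 1.71% (edgeR adjusted p = 0.442).

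Of the glutathione genes, Gclc (ENSMUSG00000032350.9, chromosome 9 from 77754535 to 77794485) had 197, 186 and 204 CPM with control and 182, 178 and 185 CPM with NFL supernatant. All NFL libraries were below all control libraries, although NFL replicate 3 came close to control replicate 2. The means were 196 ± 9.20 and 181 ± 3.48 CPM (SD, n = 3 each), and the log2 fold change was -0.11 (95% interval -0.18 to -0.04, SE 0.035, edgeR adjusted p = 0.041). This call was marginal. It was lost in 8 of 14 alternatives, with an adjusted p of 0.131 without control replicate 1, 0.248 without control replicate 3, 0.108, 0.225 and 0.0961 without NFL replicates 1, 2 and 3, 0.0592 with libraries thinned to equal depth, 0.0589 without the count filter and 0.0781 with the DESeq2 Wald test. The direction was the same throughout.

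Gclm, the modifier subunit that makes the same enzyme more efficient, had 213, 223 and 218 CPM against 208, 202 and 210.1 CPM. Again no NFL library reached a control library, but the difference of -5.03% was not past the threshold (log2 fold change -0.07, 95% interval -0.14 to -0.01, edgeR adjusted p = 0.187). The ratio of Gclc to Gclm reads was 0.922, 0.834 and 0.938 in control and 0.873, 0.880 and 0.879 in NFL libraries, so the groups overlapped in this ratio (exact two-sided permutation p = 0.5). A transcript on the other strand, Gm17494, shares 296 bases with Gclm and had at most 57 counts.

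Slc7a11, the cystine transporter that supplies cysteine for glutathione, lay on the other side. It had 54.6, 55.0 and 54.5 CPM with control and 58.7, 58.9 and 60.5 CPM with NFL supernatant. The groups were well apart relative to their spread, and the log2 fold change equalled that of Txn1 at 0.12. Its counts were lower than those of Txn1 and its SE in the fit was 0.053, against 0.014 from its own 6 values, and it was not past the threshold (95% interval 0.01 to 0.22, edgeR adjusted p = 0.194). A stretch of 373 bases in its longest annotated transcript is 96.2% identical to the α-tubulin gene Tuba1b, which had 8554 to 13350 counts against 878 to 1346 for Slc7a11. In all, 9 annotated genes matched 373 or 375 bases of that transcript. Tuba1c (95.4% identical) had 3252 to 5074 counts and Tuba1a (96.0%) had 605 to 1218. The log2 fold change of Tuba1b was 0.10 (edgeR adjusted p = 0.020), and those of the other matching genes are not given here. Whether any of them shared reads with Slc7a11 was not tested, so the value of Slc7a11 is uncertain.

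Hmox1, haem oxygenase 1, the enzyme that opens the haem ring and a target that BACH1 represses, had 82.1, 78.9 and 76.9 CPM against 79.5, 79.7 and 73.7 CPM. The groups overlapped, and the interval of the difference was -8.45% to 4.54% (edgeR adjusted p = 0.798).

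**Figure D2:**
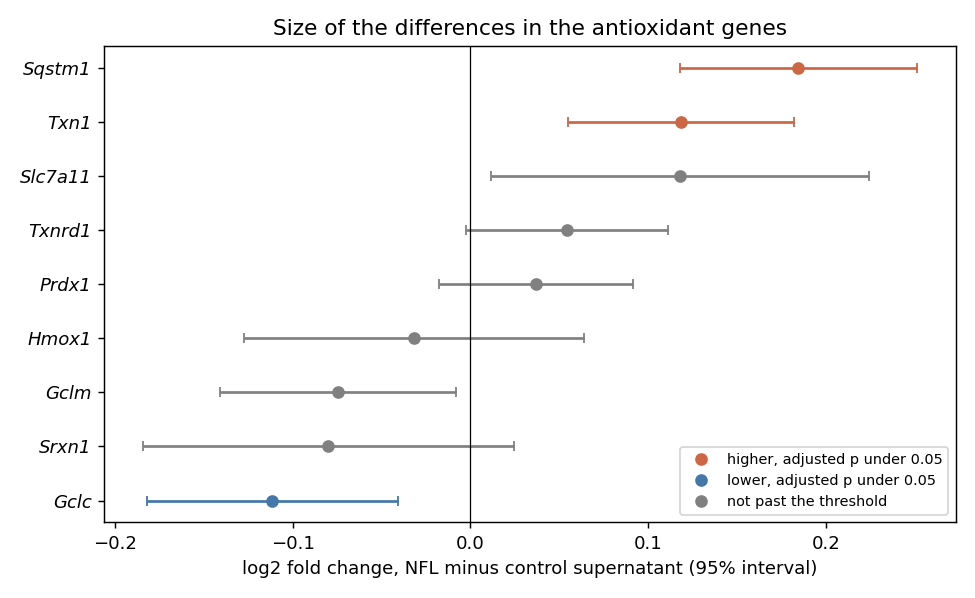
Log2 fold change of the 9 tested genes, NFL minus control supernatant, with 95% intervals from the edgeR fit. Sqstm1 at 0.18 and Txn1 at 0.12 were higher and Gclc at -0.11 lower past the threshold, and the intervals of Txnrd1, Prdx1, Hmox1 and Srxn1 include 0.

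In 6 of the 9 tested genes, Sqstm1, Txn1, Txnrd1, Slc7a11, Gclc and Gclm, the groups did not overlap, 4 of them higher and 2 lower with NFL supernatant. Over the whole table this was so for 22.7% of the genes tested. With library size alone the number was 5 of 9, against 22.9% of all genes. Unadjusted edgeR p-values were under 0.05 for 5 of the 9 genes and for 19.3% of all genes. These shares were not taken over the abundant genes alone, which passed the adjusted threshold more often than all genes.

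The other genes of the pathway were described with 8 lists of 115 genes, 93 of them tested. Of these, 4 were higher and 7 lower past the threshold, 11.8% of the genes tested, and the median log2 fold change was -0.02. This share lies between the 7.00% of all genes and the 14.4% of the abundant genes that passed, and the counts of the single lists below are to be read against the same background. Among the regulators 9 of 10 could be tested. Nfe2l2, which encodes NRF2 itself, had 37.8, 42.7 and 39.1 CPM with control and 34.2, 33.5 and 36.0 CPM with NFL supernatant. All NFL libraries were lower, and the log2 fold change was -0.20 (95% interval -0.33 to -0.07, edgeR adjusted p = 0.055), just short of the threshold. Nfe2l2 was past it in only 2 of 14 alternatives. These were library size alone (adjusted p = 0.0367) and at least 10 counts required in every sample (adjusted p = 0.0496). With 1 library left out it was past it in 0 of 6 fits (edgeR adjusted p from 0.0573 to 0.226). The DESeq2 Wald test gave an adjusted p = 0.0875 and limma-voom 0.0724. Keap1 was at 62.8 ± 1.46 and 63.3 ± 1.15 CPM (SD, n = 3 each, edgeR adjusted p = 0.940) and Bach1 at 59.4 ± 3.55 and 62.1 ± 1.26 CPM (SD, n = 3 each, edgeR adjusted p = 0.584). Bach2, a related repressor, was below 0.45 CPM in every library.

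Maff, a small MAF partner of NRF2, was the 1 regulator past the threshold. It rose from 17.5, 18.3 and 18.7 CPM to 22.9, 22.1 and 21.2 CPM. The difference was 0.28 in log2 units (SE 0.086, edgeR adjusted p = 0.034), and the groups were apart. This call was lost in 8 of 14 alternatives, with an adjusted p of 0.138 and 0.0502 without control replicates 1 and 3, 0.117, 0.0956 and 0.0659 without NFL replicates 1, 2 and 3, 0.0880 with thinned counts, 0.0589 without the count filter and 0.0573 with DESeq2. The fold change stayed between 0.25 and 0.31 in all of them.

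The glutathione list held the called gene with the largest difference. Gstm1, a mu-class glutathione transferase, had 136, 131 and 135 CPM with control and 109, 107 and 101 CPM with NFL supernatant, or -0.35 in log2 units (SE 0.040, edgeR adjusted p = 4.7e-09). It was past the threshold in all 14 alternatives. Of the 22 genes tested in this list 1 rose and 3 fell past the threshold, with a median of -0.03 over all 22. Gpx4, the selenoenzyme that reduces lipid peroxides with glutathione, rose from 114 ± 6.46 to 131 ± 3.79 CPM (SD, n = 3 each, log2 fold change 0.20, edgeR adjusted p = 8.6e-04) and also held in all 14 alternatives. Glrx, glutaredoxin 1, had a log2 fold change of -0.17 and Gsto1, an omega-class transferase, of -0.11 (edgeR adjusted p = 0.0088 and 0.031). Glrx was not past the threshold without control replicate 2 (adjusted p = 0.0534) or NFL replicate 2 (0.0735). Gsto1 was past it with control replicate 3 omitted, but not without any of the others (adjusted p = 0.0663 and 0.141 without control replicates 1 and 2, 0.0694, 0.0713 and 0.210 without NFL replicates 1, 2 and 3). Gstm1 and Gsto1 belong to families of similar genes that could share reads.

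Of 17 further thioredoxin and peroxiredoxin genes tested, 0 rose and 2 fell past the threshold, with a median of 0.005. DESeq2 and limma-voom gave the same numbers, and 0 genes were higher at an unadjusted edgeR p under 0.05. Txnip, which encodes the protein that binds and inhibits thioredoxin, had 112, 118 and 114 CPM with control and 92.1, 95.9 and 94.2 CPM with NFL supernatant. The groups were far apart, with a log2 fold change of -0.28 (SE 0.041, edgeR adjusted p = 1.9e-06). Sesn3, a sestrin, was at 65.4 ± 3.72 and 54.4 ± 1.21 CPM (SD, n = 3 each, log2 fold change -0.27, edgeR adjusted p = 4.3e-04). Both held in all 14 alternatives.

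In the haem and iron list, Flvcr1, a haem and choline transporter, rose from 127 ± 5.51 to 146 ± 5.33 CPM (SD, n = 3 each, log2 fold change 0.19, edgeR adjusted p = 6.0e-04) and held in all 14 alternatives. Fth1, ferritin heavy chain, had a log2 fold change of -0.10 (edgeR adjusted p = 0.024), although its groups overlapped, at 1245, 1157 and 1141 CPM against 1167, 1063 and 1067 CPM. It was not past the threshold without control replicate 1 (log2 fold change -0.06, adjusted p = 0.307), NFL replicate 2 (0.222) or NFL replicate 3 (0.243), nor with DESeq2 (0.336). The other 6 tested genes of the list were not past it.

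Of 10 tested genes of the autophagy receptor list, 1 rose and 1 fell past the threshold. Gabarapl1, an ATG8-family protein, rose from 68.7 ± 3.41 to 78.8 ± 2.55 CPM and Tax1bp1, another receptor, fell from 388 ± 4.55 to 357 ± 6.10 CPM (SD, n = 3 each, edgeR adjusted p = 0.0072 and 0.0067). Without NFL replicate 1 neither was past the threshold (adjusted p = 0.0584 and 0.0587). The superoxide and peroxide enzymes (5 tested, median -0.06), the NADPH supply genes (9 tested, median 0.02) and the other named NRF2 targets (13 tested, median -0.04) held 0 genes past the edgeR threshold. DESeq2 and limma-voom also called 0, and 2, 2 and 0 genes of these lists had an unadjusted edgeR p under 0.05.

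**Figure D3:**
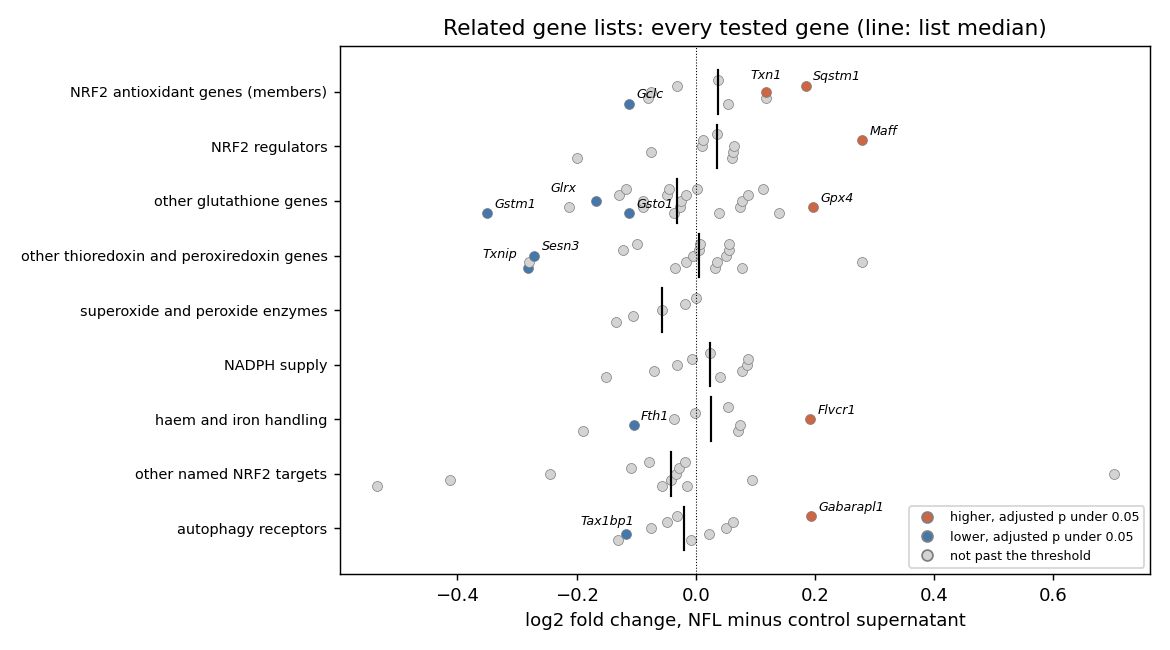
Log2 fold change, NFL minus control supernatant, of every tested gene in the 10-gene set and the 8 related lists; each point is 1 gene, spread vertically for legibility, and the black line is the list median. Genes past the threshold are coloured and named, from Gstm1 at -0.35 to Maff at 0.28, those not past it reach from -0.54 to 0.70, and all medians lie between -0.06 and 0.04.

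**Figure D4:**
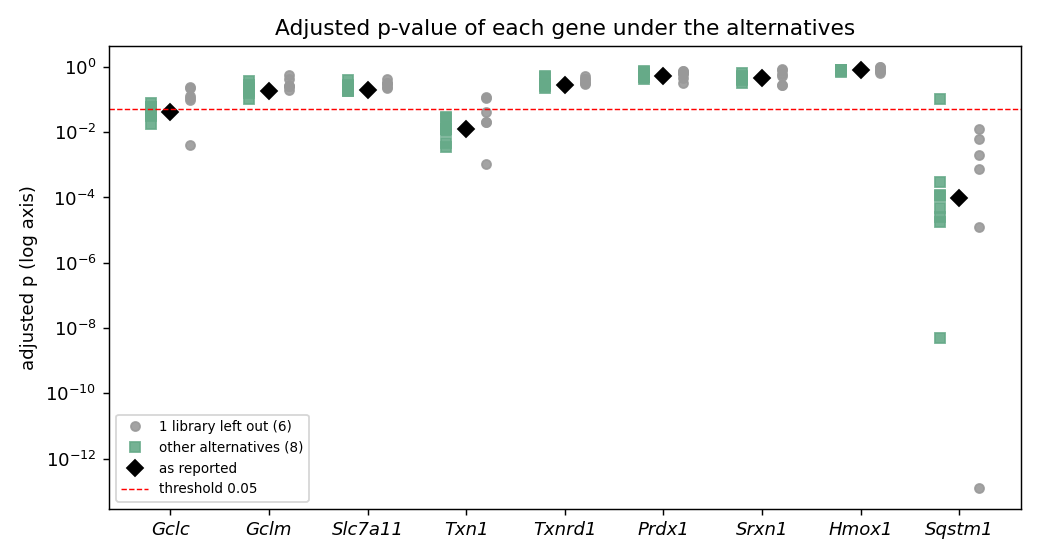
Adjusted p-value (log axis) of the 9 tested genes as reported, with 1 library left out (6 fits) and under the other 8 alternatives; the dashed line is the threshold of 0.05. Sqstm1 crosses it only with the DESeq2 Wald test at 0.106, Txn1 crosses it in 2 fits with a library left out, and Gclc lies on both sides.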

How the data were processed

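Poly(A)-selected RNA of 6 T-cell cultures was sequenced on an Illumina instrument. The authors deposited raw read counts per gene, without normalization, with 1 column per sample, and 0 columns were left without a sample. The labels' processing notes name GRCm39, R 4.2.1 and limma 3.54.2. No source used here gives the aligner, counting program, annotation or strand setting. Symbols were matched for 55141 of 55401 identifiers. Coordinates and exon lengths came from GENCODE M21 (GRCm38), where 54349 versioned identifiers, all members included, were identical.

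Genes were kept by filterByExpr (minimum count 10, minimum total count 15), scaled by TMM and tested with glmQLFTest of edgeR 4.0.16 in R 4.3.3, with Benjamini-Hochberg adjustment over 14082 genes. At these depths 3 counts are 0.122 to 0.188 CPM. Alternatives used DESeq2 1.42.0, limma 3.58.1, other filters, scalings and thresholds, thinned counts, a replicate block and each library left out. The fits were also run on simulated data, and the outcome is not given here. Near-identical copies were sought in M21 transcripts (at least 95% identity over 200 bases). Members and lists were chosen with earlier results of these data known. The regulators Nfe2l2, Keap1, Bach1 and Bach2, and in each list the genes past the threshold (at most 4), are named. Markers, Mrnip, Tuba1b and other overlapping or similar genes were looked up after values were seen or for identity.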

Additional observations from a re-analysis of the deposited data

How the results depend on the processing

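The count of genes past the threshold was 986, and with each library left out it ran from 508 (NFL replicate 3) to 966. It was 500 at an adjusted p under 0.01. The number of members past the threshold was 3, and 1 or 2 with each library left out. It was 1 with the DESeq2 Wald test (Txn1) and 1 at an adjusted p under 0.01 (Sqstm1). The median log2 fold change of the 9 tested members stayed between 0.023 and 0.056. Directions reversed only for genes close to 0, Hmox1 without NFL replicate 3 (0.005, with other libraries left out down to -0.057) and Keap1 with library size alone (-0.002) and without control replicate 3 (-0.010, with other libraries left out up to 0.027). The correlations of same-numbered samples' deviations from their group means were 0.011, 0.015 and 0.007. Those of differently numbered samples ran from -0.016 to 0.003. With 3 libraries per group these values cannot show whether same-numbered cultures shared an animal or a day. With the replicate block 1049 genes were called, and Sqstm1, Txn1 and Gclc were among them. Counting depth limits Nqo1, at 2 to 8 counts per library.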
